A study of Mus musculus with 10 samples.

Results

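A set of 10 genes of the red blood cell lineage was followed in hematopoietic stem cells (HSCs), from which all blood cells descend. They were chosen as a list of gene symbols: the globins Hba-a1 and Hbb-bt, the carbonic anhydrases Car1 and Car2, the transcription regulators Klf1, Gata1 and Zfpm1, the receptors Epor and Tfrc, and the membrane protein gene Ermap. All 10 were among the 20270 genes measured, and all 10 passed the filter on low values with 15143 genes in all. RNA was sequenced in 10 libraries of HSCs, isolated by FACS out of bone marrow from C57BL/6 mice, recipients of a first transplant of lineage-depleted marrow from Id1-/- or Id1+/+ donors. The groups were Id1+/+ Normal (3 libraries), Id1-/- Normal (3), Id1+/+ Stressed (2) and Id1-/- Stressed (2). All groups thus share transplantation into a host, and the labels give 4 weeks after it where the series design gives 6 weeks. Normal and Stressed are not defined in the labels, and neither are the age of the mice, what the host's own marrow still contributed, or whether replicates came from separate animals or pools. The p-values therefore measure the spread between these libraries, which may be technical.

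Red cells arise from HSCs through progenitors that also give rise to megakaryocytes, the platelet-forming cells, and the factor encoded by Gata1 acts in both lineages together with its cofactor, the product of Zfpm1 (FOG-1). KLF1 switches on globin and red cell membrane genes, erythropoietin acts through the receptor encoded by Epor, and the transferrin receptor encoded by Tfrc brings in iron for haem. Globins and carbonic anhydrase 1 are products of red cell maturation, and low levels of such transcripts can be read in stem and progenitor cells, where they are described as lineage priming. In sorted bulk samples, fewer cells of a type and less RNA per cell cannot be told apart.

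Levels are given as log2 CPM, where CPM is a gene's count relative to the total of its library. The estimated depth ran from 25700000 to 33000000 reads per library. All 14 genes of the HSC marker list used were detected in every group, with summed levels between 2928 and 3906 CPM over the libraries. The list is broad, as it also holds Kit, Cd34, Flt3 and Cd48, so it does not separate HSCs from progenitors. Kit alone had group means of 10.42 to 10.81 log2 CPM. The targeted gene Id1 went against its label: it stood at 3.27 to 3.72 log2 CPM in the KO-labelled normal libraries and at 0.43 to 1.66 in the WT-labelled normal libraries. In the stressed condition it stood at 3.08 and 3.18 in the KO-labelled libraries and at 0.36 and 2.13 in the WT-labelled ones. The labels do not say which part of the gene is deleted, so reads outside that part would check nothing, and the genotypes are written below as labelled. In a principal component analysis the conditions separated on the component with 19.0% of the variance. KO-labelled normal library A lay far from the rest on the third component (12.5%). On the second (13.1%), WT-labelled stressed libraries A and B scored 83 and 20.3. The KO-labelled stressed libraries scored -47.2 and -60.8 there, so it separated the genotype labels under stress. Results that change without KO-labelled normal library A or WT-labelled stressed library A are given both ways.

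The globin genes are shown first because their copies limit what can be read from each. The coding sequences of Hba-a1 and its neighbour Hba-a2 have 426 bases and differ at 1, C381T, and those of Hbb-bt and its neighbour Hbb-bs have 441 bases and differ at 1, T417C. Positions are counted from 1 at the first base of the start codon, and the base of the member comes first. The coding windows below hold these differences in capitals, from the GENCODE vM21 annotation of GRCm38. 
Hba-a1, coding bases 351 to 410: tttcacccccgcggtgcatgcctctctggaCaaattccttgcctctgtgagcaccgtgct
Hba-a2, coding bases 351 to 410: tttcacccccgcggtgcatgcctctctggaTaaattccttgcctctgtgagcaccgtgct
Hbb-bt, coding bases 382 to 441: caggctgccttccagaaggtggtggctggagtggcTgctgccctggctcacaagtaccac
Hbb-bs, coding bases 382 to 441: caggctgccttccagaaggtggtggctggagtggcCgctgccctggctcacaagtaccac
Since reads over most of the coding sequence fit either copy, the split between copies is uncertain, and each globin result is also given with its copies summed. Hba-a1 took 81.0% to 100% of the alpha globin level in each library and Hbb-bt took 74.6% to 91.8% of the beta globin level.

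Promoters are shown for 4 genes whose levels are compared below, a pair that fell under stress with the WT label (both globins) and a pair of regulators (Klf1 and Gata1). Each is the 200 bases before the RefSeq start of the gene on GRCm38.p6, written 5′ to 3′ along the gene. Capitals mark matches, on either strand, to a GATA motif (the letters AGATAA, the letters AGATAG, the letters TGATAA or the letters TGATAG) or to a CACCC box (CCNCNCCC), the kinds of sequence that GATA1 and KLF1 are known to bind. 
Hba-a1 (chr11:32283472-32283671, plus strand): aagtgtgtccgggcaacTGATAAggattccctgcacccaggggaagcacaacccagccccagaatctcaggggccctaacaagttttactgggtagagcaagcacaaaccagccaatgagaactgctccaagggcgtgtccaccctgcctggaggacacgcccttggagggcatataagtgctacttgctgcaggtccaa
Hbb-bt (chr7:103813924-103814123, minus strand): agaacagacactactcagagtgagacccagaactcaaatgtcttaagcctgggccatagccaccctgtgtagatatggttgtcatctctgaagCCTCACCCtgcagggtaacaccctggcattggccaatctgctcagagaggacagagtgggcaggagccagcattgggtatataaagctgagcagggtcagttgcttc
Klf1 (chr8:84901782-84901981, plus strand): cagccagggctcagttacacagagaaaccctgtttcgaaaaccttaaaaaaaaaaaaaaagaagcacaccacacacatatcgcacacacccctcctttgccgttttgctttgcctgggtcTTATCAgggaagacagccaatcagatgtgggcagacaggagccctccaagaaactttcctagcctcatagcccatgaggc
Gata1 (chrX:7967911-7968110, minus strand): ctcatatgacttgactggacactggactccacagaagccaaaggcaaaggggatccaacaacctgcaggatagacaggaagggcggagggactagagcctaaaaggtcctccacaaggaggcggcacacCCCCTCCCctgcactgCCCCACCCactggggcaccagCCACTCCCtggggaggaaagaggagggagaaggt
Hba-a1 held a GATA match 183 bases before the start and Klf1 held one at 80 bases. Hbb-bt held a CACCC match at 107 bases, and Gata1 held 3, at 71, 55 and 34 bases. Of the 8 genes with a promoter in the RefSeq table (all but Car1 and Car2), 4 held a GATA match (Hba-a1, Klf1, Epor and Ermap) and 5 held a CACCC match (Hbb-bt, Gata1, Zfpm1, Epor and Tfrc). Windows of the same length held a GATA match in 21.4% and a CACCC match in 42.6% of 32851 promoters. A match is a description of the letters and not of binding.

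Per kilobase of exon, the scale on which genes can be compared, Car2 was the highest of the 10 genes, with group means between 547 and 615 CPM per kb. Car1 stood at 43.6 to 116 CPM per kb, Zfpm1 at 76.5 to 91.8 and Gata1 at 32.8 to 49.0. Car1 was above Zfpm1 in both normal groups and below it in both stressed groups, and in WT-labelled stressed HSCs it was also below Gata1 (43.6 against 45.0 CPM per kb). Epor, Hbb-bt, Klf1 and Tfrc lay lower, with group means between 5.46 and 23.7 CPM per kb. Hba-a1 (1.10 to 5.35) and Ermap (1.33 to 3.0) were the lowest. Carbonic anhydrase transcripts, as counted, therefore outweighed globin transcripts in these HSCs. The estimated reads on Hba-a1 were 20 to 155 per library and those on Hbb-bt about 164 to 459. The neighbouring copies Hba-a2 (0.189 to 1.07 CPM per kb) and Hbb-bs (0.957 to 4.125) were also low. How reads that fit both copies were counted is not given in the sources used here, so globin may be undercounted. Alas2, which encodes the red cell enzyme that starts haem synthesis, was also low, at 0.15 to 1.68 log2 CPM over the 10 libraries.

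**Figure D1:**
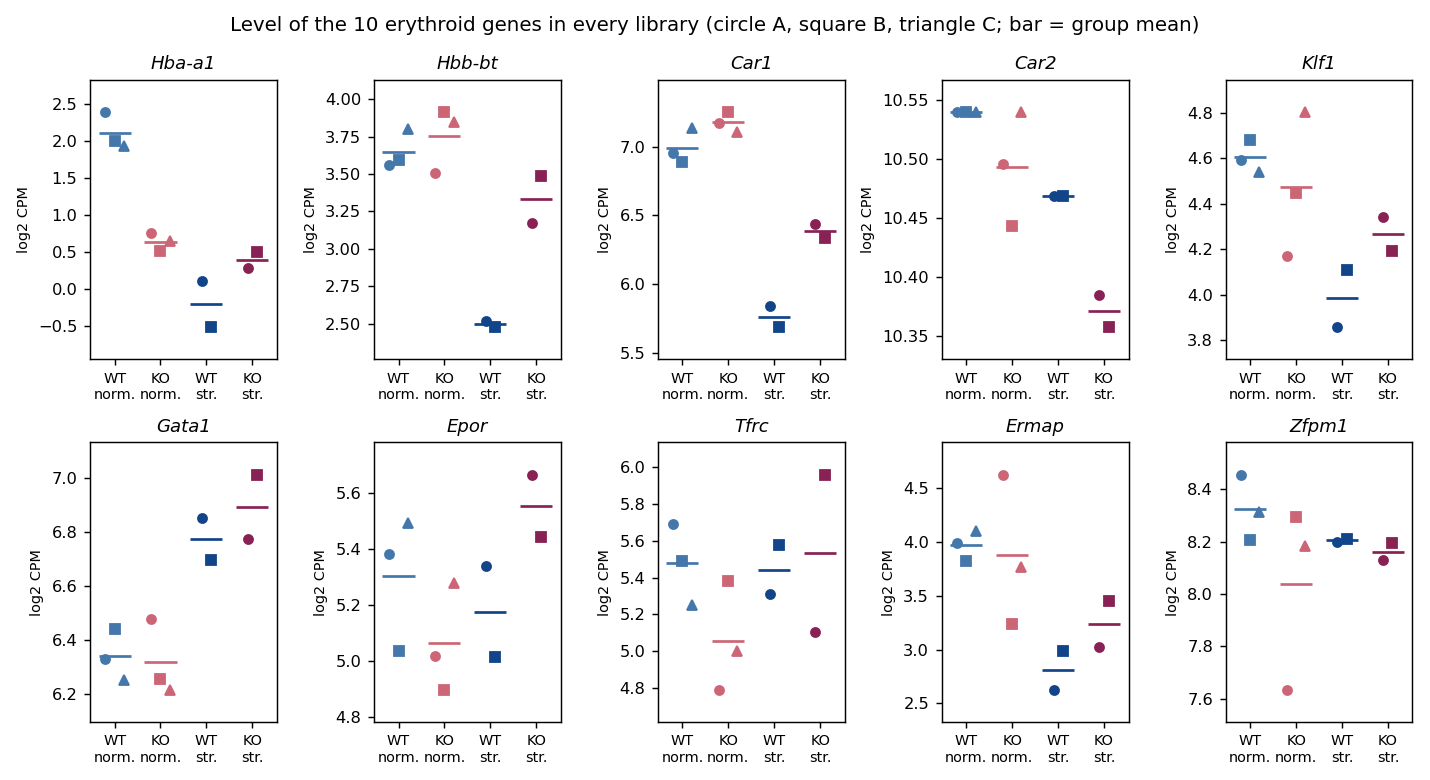
Level of each erythroid gene in log2 CPM (vertical axes, a separate scale per gene) in the 10 libraries, grouped by genotype label and condition (norm., Normal; str., Stressed); symbols mark the replicate letter and bars the group mean. Car1 and Hbb-bt are lower in both stressed groups than in both normal groups, Gata1 is higher, and Hba-a1 is highest in the WT-labelled normal libraries.

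Stress was compared with the normal condition within each genotype label. In WT-labelled HSCs the transcripts of maturation fell under stress: Car1, Hba-a1 and Hbb-bt passed the test, all lower. That is 3 of 10 genes at an adjusted p under 0.05 in limma, against 3.30% of all genes tested (1.75% lower). In KO-labelled HSCs Car1 again fell and Gata1 rose, 2 of 10 genes against 4.50% of all genes (2.23% higher and 2.28% lower). The median difference over the 10 genes was -0.37 in WT-labelled and -0.16 in KO-labelled HSCs, beside a median over all genes of 0.0071 and 0.00045. At an unadjusted p under 0.05, 1 gene was higher and 6 were lower in WT-labelled HSCs (7.98% and 8.84% of all genes), and 2 were higher and 2 lower in KO-labelled HSCs (8.41% and 9.48%).

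Car1 encodes the cytosolic carbonic anhydrase that becomes abundant in red cells. Its values in WT-labelled normal libraries A, B and C were 6.96, 6.89 and 7.14 log2 CPM, and in WT-labelled stressed libraries A and B they were 5.84 and 5.69. In KO-labelled normal libraries they were 7.17, 7.25 and 7.11, and in KO-labelled stressed libraries 6.44 and 6.33. Every stressed library lay below every normal one, and within the stressed condition both KO-labelled libraries lay above both WT-labelled ones. Under stress Car1 fell by 1.23 on the log2 scale in WT-labelled HSCs (SE 0.10, 2.34-fold lower, adjusted p = 8.01e-05 in limma). It fell by 0.79 in KO-labelled HSCs (SE 0.10, 1.73-fold lower, adjusted p = 0.00119 in limma). Ordered by p, Car1 was gene 17 of 15143 in the first comparison and gene 95 in the second. It passed the threshold in all 21 other settings of each comparison.

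Hbb-bt, an adult beta globin gene, showed the same order of groups. It stood at 3.56, 3.59 and 3.80 log2 CPM in the WT-labelled normal libraries and at 2.52 and 2.48 in the WT-labelled stressed ones, with no overlap. In KO-labelled HSCs it stood at 3.50, 3.91 and 3.85 in normal and at 3.17 and 3.49 in stressed libraries, where the groups lay close together. Hbb-bt fell by 1.15 in WT-labelled HSCs (SE 0.22, adjusted p = 0.0161 in limma). The difference in KO-labelled HSCs was -0.42 (SE 0.22, adjusted p = 0.350 in limma). The neighbouring copy Hbb-bs differed by -2.14 in WT-labelled HSCs without passing (SE 0.54, adjusted p = 0.0584 in limma). With both copies summed, beta globin fell by 1.30 in WT-labelled HSCs (adjusted p = 0.00458 in limma) and differed by -0.40 in KO-labelled HSCs (adjusted p = 0.320 in limma). With the replicate letter as a block, Hbb-bt did not pass in WT-labelled HSCs (adjusted p = 0.0512 in limma). The call on Hbb-bt alone was lost without WT-labelled stressed library A or B or WT-labelled normal library C, with adjusted p between 0.0688 and 0.0748 in limma, and with only the groups compared in the model (adjusted p = 0.0510 in limma).

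Hba-a1, an adult alpha globin gene, followed another order. It stood at 2.39, 2.0 and 1.92 log2 CPM in the WT-labelled normal libraries, above all other libraries. The KO-labelled normal libraries stood at 0.76, 0.51 and 0.64, the KO-labelled stressed ones at 0.29 and 0.50, and the WT-labelled stressed ones at 0.11 and -0.51. No neighbouring groups in this order overlapped. Hba-a1 fell by 2.30 under stress in WT-labelled HSCs (SE 0.44, 4.94-fold lower, adjusted p = 0.0168 in limma). In KO-labelled HSCs the difference was -0.25 (95% interval -1.22 to 0.73, adjusted p = 0.842 in limma). With Hba-a2 added, alpha globin fell by 2.38 in WT-labelled HSCs (adjusted p = 0.0133 in limma) and differed by -0.25 in KO-labelled HSCs (adjusted p = 0.838 in limma). With the replicate letter as a block, Hba-a1 did not pass in WT-labelled HSCs (adjusted p = 0.0512 in limma). The call on Hba-a1 was lost without WT-labelled stressed library B or without any 1 of the 3 WT-labelled normal libraries, with adjusted p between 0.0546 and 0.0899 in limma.

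Both globin chains were also set against each other in linear CPM. Alpha globin, copies summed, was 4.45 to 5.91 CPM in the WT-labelled normal libraries and 0.703 to 1.83 CPM in the 7 others. Beta globin was 13.6 to 17.2 CPM in all 6 normal libraries, 6.08 and 6.69 CPM in the WT-labelled stressed ones and 11.4 and 12.3 CPM in the KO-labelled stressed ones. The ratio of beta to alpha was thus 2.68 to 3.87 in WT-labelled normal HSCs and 5.03 to 10.2 elsewhere. No test was run on this ratio.

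**Figure D2:**
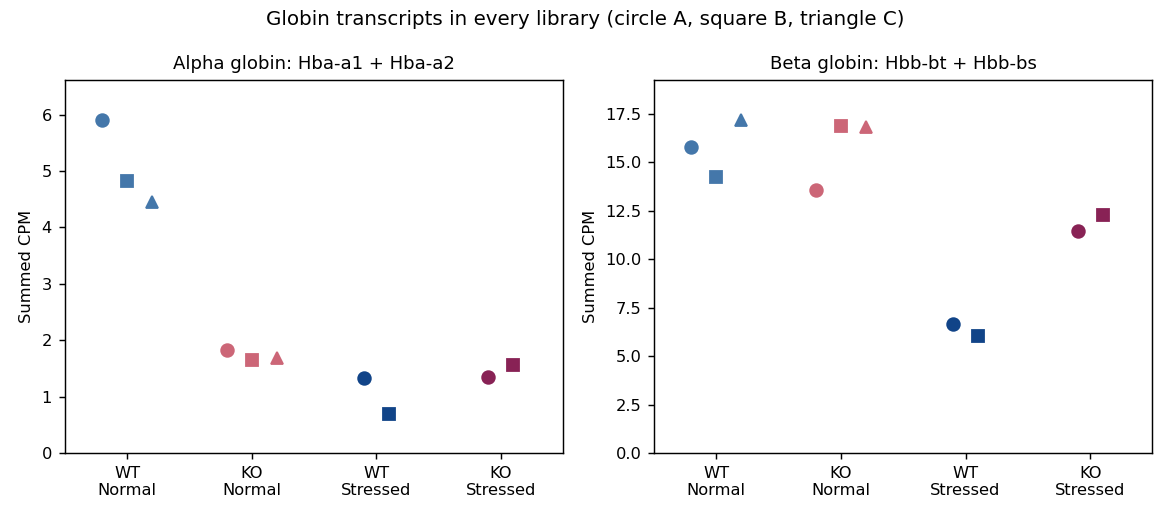
Summed CPM of the alpha globin copies (left) and beta globin copies (right) in every library by genotype label and condition; each symbol is 1 library and both axes start at 0. Alpha globin is highest in the 3 WT-labelled normal libraries (4.45 to 5.91 CPM), while beta globin is lowest in the 2 WT-labelled stressed libraries (6.08 and 6.69 CPM).

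Of the regulators, Gata1 moved the other way from the maturation genes. Its normal libraries stood at 6.33, 6.44 and 6.25 log2 CPM with the WT label and at 6.48, 6.26 and 6.22 with the KO label. Its stressed libraries stood at 6.85 and 6.70 with the WT label and at 6.78 and 7.01 with the KO label. All 4 stressed libraries lay above all 6 normal ones. Gata1 rose by 0.58 in KO-labelled HSCs (SE 0.12, 1.49-fold, adjusted p = 0.0169 in limma). The difference in WT-labelled HSCs was 0.43 (SE 0.12, adjusted p = 0.0751 in limma), and without KO-labelled normal library A, which adds only to the shared spread there, the adjusted p was 0.0487 in limma. The call in KO-labelled HSCs was lost without KO-labelled stressed library B (adjusted p = 0.174 in limma) or KO-labelled normal library C (adjusted p = 0.0560 in limma). It was also lost without the variance trend (adjusted p = 0.0722 in limma) and with only the groups compared (adjusted p = 0.0885 in limma). The same held with the replicate letter as a block (adjusted p = 0.0602 in limma).

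Megakaryocyte genes, which GATA1 also regulates, moved with Gata1. Of 15 megakaryocyte and platelet markers tested, 6 rose and 2 fell under stress in WT-labelled HSCs, and 8 rose and 2 fell in KO-labelled HSCs, beside 3.30% and 4.50% of all genes called. Pf4, the platelet factor 4 gene, rose by 1.16 in WT-labelled and by 1.31 in KO-labelled HSCs (adjusted p = 1.14e-05 and 2.42e-06 in limma). Itga2b, the integrin alpha IIb gene, rose by 0.49 and 0.67 (adjusted p = 0.00185 and 0.000193 in limma). Mmrn1, the multimerin 1 gene, was among the members that fell. The summed level of the list was 2748 to 2821 CPM in the stressed libraries, 2765 to 2870 in the WT-labelled normal and 2476 to 2563 in the KO-labelled normal libraries, and no marker was at 0 in every library of a group. Of 14 HSC markers, 1 rose and 4 fell in each genotype label, beside the same 3.30% and 4.50% of all genes, and their summed level was 2928 to 3325 CPM in stressed against 3303 to 3906 in normal libraries. The gene that rose was Cd34 with the WT label and Cd48 with the KO label. Hlf and Mllt3 were among the genes that fell with each label, and Kit was among those that fell with the WT label. The mast cell, basophil and eosinophil markers (9 of 12 measured) summed to 7.85 to 11.1 CPM in normal and to 13.6 to 19.8 CPM in stressed libraries, and none of the 6 tested passed in either label. The T and NK cell markers (4 of 10 measured) summed to 61.3 to 69.2 CPM in normal and to 98.1 to 123 CPM in stressed libraries. Most of that sum was Nkg7, a cytotoxic granule gene, which rose by 1.03 in WT-labelled and by 0.64 in KO-labelled HSCs (adjusted p = 0.000278 and 0.00393 in limma). The other 2 of the 3 tested, Klrb1c and Cd4, differed by -1.64 and -4.36 in WT-labelled HSCs (adjusted p = 0.174 and 0.290 in limma). Both were also below 0 in KO-labelled HSCs without passing, so the list did not rise as a whole. The part of any of these lists in the result on Gata1 or on the maturation genes was not tested.

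Klf1 did not pass in either genotype. It stood at 4.60, 4.68 and 4.54 log2 CPM in WT-labelled normal and at 3.86 and 4.11 in WT-labelled stressed libraries, without overlap, a difference of -0.62 (SE 0.20, adjusted p = 0.125 in limma). In KO-labelled HSCs it stood at 4.17, 4.45 and 4.80 in normal and at 4.34 and 4.19 in stressed libraries, and the groups overlapped. Zfpm1 overlapped in both genotypes, with differences of -0.12 (95% interval -0.46 to 0.22) and 0.12 (95% interval -0.21 to 0.46). Its lowest value, 7.63, was in KO-labelled normal library A, and the other 9 libraries lay between 8.13 and 8.45. Without that library the difference in KO-labelled HSCs was -0.078 in place of 0.12.

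Ermap, which encodes a red cell membrane protein of the immunoglobulin superfamily, was lower under stress in WT-labelled HSCs without passing the test. It stood at 3.98, 3.82 and 4.10 log2 CPM in WT-labelled normal and at 2.63 and 2.99 in WT-labelled stressed libraries, a difference of -1.16 (SE 0.34, adjusted p = 0.102 in limma). Without KO-labelled normal library A, which holds the highest Ermap value of all (4.62) and enters only through the shared spread, the adjusted p was 0.0307 in limma. The difference in KO-labelled HSCs was -0.64 (95% interval -1.39 to 0.12), with overlapping groups.

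Among the receptors, Epor and Tfrc passed in neither genotype. Epor stood at 5.04 to 5.49 log2 CPM in WT-labelled normal and at 5.02 and 5.34 in WT-labelled stressed libraries, a difference of -0.13 (95% interval -0.52 to 0.27). In KO-labelled HSCs it stood at 4.90 to 5.28 in normal and at 5.44 and 5.66 in stressed libraries, a difference of 0.49 (SE 0.18, adjusted p = 0.174 in limma) without overlap. Tfrc was the most variable between replicates of the KO-labelled stressed group, at 5.10 and 5.96, and its stress differences were -0.035 (WT label, 95% interval -0.58 to 0.51) and 0.48 (KO label, 95% interval -0.073 to 1.02). Car2, the other carbonic anhydrase, differed by -0.071 (WT label, 95% interval -0.14 to -0.00051) and -0.12 (KO label, adjusted p = 0.0586 in limma, and 0.0235 without KO-labelled normal library B). All of its 10 values lay between 10.36 and 10.54 log2 CPM. The 10 libraries share nearly the same values at equal ranks, and how much of this narrow range comes from that was not tested.

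**Figure D3:**
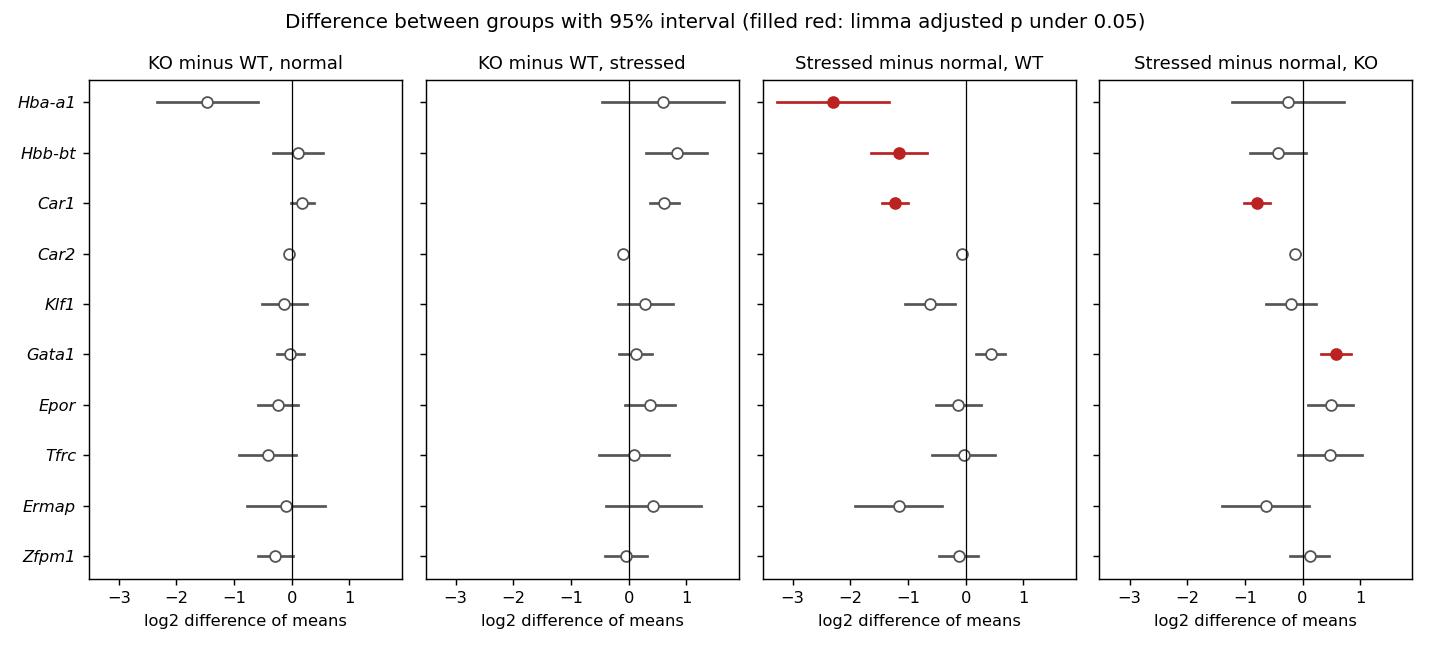
Log2 difference between group means (horizontal axis) for the 10 genes in the 4 pairwise comparisons, with 95% intervals as lines; filled red points passed limma at an adjusted p under 0.05. Passing points appear only in the stress comparisons: Hba-a1, Hbb-bt and Car1 with the WT label, and Car1 and Gata1 with the KO label.

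The genotype labels were compared within each condition to ask whether loss of Id1 goes with a different erythroid level. No gene of the 10 passed in normal HSCs, where 1.56% of all genes did, and none passed in stressed HSCs, where 0.145% did. At an unadjusted p under 0.05, 0 were higher and 1 lower in normal HSCs (7.49% and 6.39% of all genes), and 2 were higher and 1 lower in stressed HSCs (4.41% and 4.46%). The targeted gene goes against the labels (above), so directions here are between libraries as labelled.

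In normal HSCs the gene with the widest gap was Hba-a1, lower in all 3 KO-labelled than in all 3 WT-labelled libraries by 1.46 on the log2 scale (SE 0.40, adjusted p = 0.111 in limma). With the copies summed, alpha globin differed by -1.54 (adjusted p = 0.0897 in limma). Beta globin, copies summed, differed by -0.0031 (95% interval -0.39 to 0.39). The other 9 genes overlapped between the labels, where 19.5% of all genes did not, with differences from -0.42 for Tfrc to 0.18 for Car1. Among marker lists of other cells, Mpo, the myeloperoxidase gene of granulocyte precursors, was higher by 2.27 in KO-labelled normal HSCs (adjusted p = 0.00915 in limma). Kit, the stem cell factor receptor gene, was lower by 0.31 there (adjusted p = 0.00501 in limma). It belongs to the HSC marker list and also to the wider erythroid lists described below.

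In stressed HSCs 6 of the 10 genes were higher and 2 lower without overlap in KO-labelled libraries, where 19.2% of all genes were higher and 19.9% lower without overlap between 2 and 2 libraries. Car1 was higher by 0.62 (SE 0.11, adjusted p = 0.0732 in limma), gene 32 of 15143 by p. Hbb-bt was higher by 0.83 (SE 0.24, adjusted p = 0.324 in limma), and Hba-a1 by 0.60 (95% interval -0.47 to 1.66). With copies summed, beta globin was higher by 0.90 (adjusted p = 0.240 in limma) and alpha globin by 0.59 (adjusted p = 0.774 in limma). Car2 was lower by 0.098 (SE 0.035, adjusted p = 0.454 in limma). The median difference over the 10 genes was 0.33, beside 0.0000 over all genes. In the KO-labelled stressed libraries the antibody chain genes Igkc (7.02 and 7.09 log2 CPM) and Jchain (4.74 and 4.79) were far above the other 8 libraries, where neither exceeded 0.58. The summed level of the 8 B and plasma cell markers was 203 to 205 CPM there and 40.1 to 54.7 CPM elsewhere. Their part in the values of these libraries was not tested.

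Whether the stress change differed between genotype labels was tested as an interaction. None of the 10 genes passed, and 0.0198% of all genes did. At an unadjusted p under 0.05, 4 genes had a less negative or more positive change in KO-labelled HSCs and 0 the reverse, beside 4.49% and 4.66% of all genes. These were Hba-a1 (difference of changes 2.06, SE 0.63, adjusted p = 0.342 in limma), Car1 (0.44, SE 0.14, adjusted p = 0.392), Hbb-bt (0.73, SE 0.31, adjusted p = 0.514) and Epor (0.61, SE 0.25, adjusted p = 0.507). The fall of the globins in WT-labelled HSCs was therefore not shown to differ from the change in KO-labelled ones. The 95% interval of the difference ran from 0.68 to 3.43 for Hba-a1 and from 0.045 to 1.41 for Hbb-bt. With copies summed, the difference of changes was 2.13 for alpha globin (adjusted p = 0.317 in limma) and 0.90 for beta globin (adjusted p = 0.363 in limma).

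The other genes of the erythroid programme came from 6 lists by role, with 75 genes tested beside the 10. Under stress in WT-labelled HSCs 2 of 75 rose and 1 fell, and in KO-labelled HSCs 3 rose and 0 fell, shares close to those of all genes (3.30% and 4.50%). Their median differences were -0.043 and -0.038. Between the genotype labels, 1 of 75 passed in normal HSCs (Kit, lower with the KO label) and 0 in stressed HSCs, beside 1.56% and 0.145% of all genes. Among transcription factors, Gfi1b, which acts in red cell and megakaryocyte formation, rose by 0.31 in WT-labelled HSCs (adjusted p = 0.0267 in limma). Sox6, a repressor of embryonic globin, rose by 0.43 there (adjusted p = 0.0445 in limma), and E2f2, a cell cycle factor, rose by 1.29 in KO-labelled HSCs (adjusted p = 0.0347 in limma). Kit fell by 0.26 in WT-labelled HSCs (adjusted p = 0.0220 in limma). In KO-labelled HSCs the haem-degrading enzyme gene Hmox1 rose by 0.82 (adjusted p = 0.0379 in limma) and Mfsd2b, a sphingosine-1-phosphate exporter of red cells and platelets, rose by 0.47 (adjusted p = 0.0206 in limma).

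None of the 14 haem synthesis genes passed in any comparison, and of 14 genes of iron handling only Hmox1 did. Tal1, a partner of GATA1, stood within 5.77 to 6.11 log2 CPM in all 10 libraries and passed in no comparison. Slc4a1, the band 3 anion exchanger gene, had 0 reads in WT-labelled stressed libraries A and B, in KO-labelled normal libraries A and C and in KO-labelled stressed library A, and stood at 0.53 to 2.07 log2 CPM in the WT-labelled normal libraries. It did not pass in any comparison. These counts of other genes move with single libraries. In WT-labelled HSCs they ranged from 0 genes without WT-labelled normal library A or B to 5 without KO-labelled normal library A, and 1 gene passed without WT-labelled stressed library B or WT-labelled normal library C. In KO-labelled HSCs 0 passed without either KO-labelled stressed library, and 1 without KO-labelled normal library A, KO-labelled normal library B or WT-labelled normal library C.

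**Figure D4:**
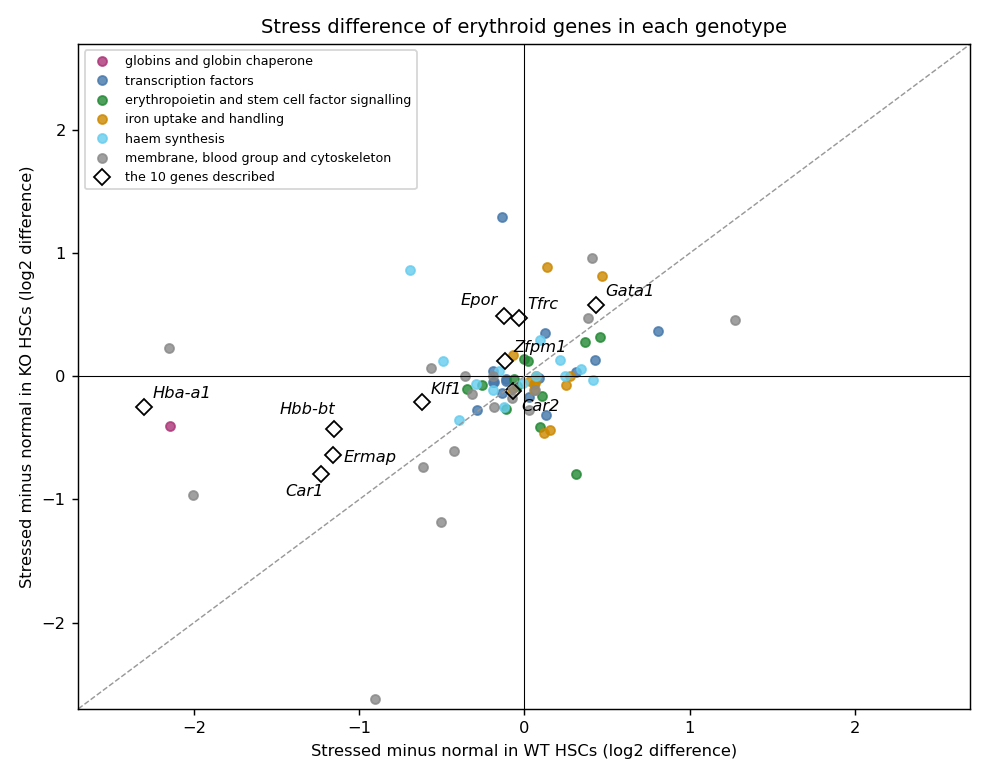
Stress difference (log2) in WT-labelled HSCs (horizontal) against KO-labelled HSCs (vertical) for the 10 genes (open diamonds, named) and the other erythroid genes tested, coloured by role; the dashed line marks equal differences, and 2 of 75 genes (Slc4a1 and Dmtn) lie beyond the axes. Hba-a1 and Hbb-bt lie left of the dashed line, with differences of -2.30 and -1.15 in WT-labelled HSCs against -0.25 and -0.42 in KO-labelled ones.

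The genes most like Car1, Gata1 and Klf1 over the 10 libraries were ranked by the root mean square difference of values centred on each gene's mean. The nearest to Car1 were Ptpdc1 (0.18 log2), Hbb-bt (0.19) and mt-Cytb (0.20), so the beta globin gene was the second nearest of all genes tested. The nearest to Gata1 were Ncapd2 (0.078), Lig1 (0.079) and Rnf26 (0.081), and those to Klf1 were Klhl2 (0.12), Ccdc137 (0.13) and Spty2d1 (0.13). The values of each member itself had an SD of 0.57 (Car1), 0.28 (Gata1) and 0.29 (Klf1) over the same libraries.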

How the data were processed

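The submitters' processing notes name Bowtie2, featureCounts and the mouse build mm10, without versions. The authors deposited log2 CPM values, and their table is named for limma voom. Its 10 libraries share nearly 1 distribution of values with a lowest value of -5.90 (0 reads), as quantile normalisation gives. Strandedness and the filter behind the 20270 genes are not given in the sources used here. Exons of the 10 genes overlapped no other gene's exons in GENCODE vM21.

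Depth was estimated from tied low values (steps of 10 to 100 reads). The low-value filter asked for a log2 value above 0 in 2 or more libraries. The linear model, with 4 group means over the 10 libraries (residual degrees of freedom: 6) and a variance trend, used limma 3.58.1 (R 4.3.3), so groups share 1 spread and same-sized groups share 1 SE. P-values were adjusted by Benjamini-Hochberg over the 15143 genes tested, with a threshold of 0.05. The script was tested on simulated data. Both genotype comparisons share libraries with both stress comparisons. The 10 genes, the lists and the tests were chosen with earlier results of these data known. Named beside the 10 genes are Id1, globin copies, at most 4 genes of each list, by smallest p, and the 3 genes most like Klf1, Gata1 and Car1. Named outside this rule, after their values were seen, are Alas2, Slc4a1, Dmtn, Tal1, Flt3 and Cd48. Some genes of the lists are not reported here. Alternatives covered the variance model, filters, pseudocounts, centring, library weights, a replicate block, thresholds, summed globin copies and each library left out. Plots were drawn with matplotlib 3.10.9.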

Additional observations from a re-analysis of the deposited data

How the results depend on the processing

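Over all settings tried, the count of the 10 genes passing ran from 1 to 5 for stress in WT-labelled HSCs (3 in the report) and from 1 to 3 for stress in KO-labelled HSCs (2). For WT-labelled HSCs it was 1 with an adjusted p under 0.01, and leaving out 1 library gave 1 to 5. It was 5 without KO-labelled normal library A and 1 without WT-labelled stressed library B or WT-labelled normal library C. For KO-labelled HSCs it was 1 without the variance trend, 1 with only the groups compared and 1 with an adjusted p under 0.01, and leaving out 1 library gave 1 to 3, with 1 without KO-labelled stressed library B or KO-labelled normal library C. For the genotypes it rose from 0 to 1 in normal HSCs without the variance trend (Hba-a1, adjusted p = 0.0408 in limma) and from 0 to 1 in stressed HSCs with an adjusted p under 0.1 (Car1). The labels do not say whether the replicate letters pair the samples. Deviations from the group means correlated at -0.024 to 0.0375 for the same letter and at -0.0375 to 0.0399 for others. In a group of 2 libraries these deviations mirror each other, so the correlations can neither show nor exclude pairing. With the replicate letter as a block the count was 1 in each stress comparison (Car1), with adjusted p = 0.0512 in limma for both Hba-a1 and Hbb-bt with the WT label and 0.0602 for Gata1 with the KO label, and 0 in each genotype comparison and in the interaction. The cause of these changes was not tested.

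Some differences of single genes changed sign with 1 library left out. In normal HSCs (KO minus WT label) they ran from -0.30 to 0.020 for Klf1 (above 0 without KO normal A), from -0.10 to 0.0275 for Gata1 (above 0 without KO normal B, KO normal C or WT normal B) and from -0.47 to 0.22 for Ermap (above 0 without KO normal B). In stressed HSCs they ran from -0.34 to 0.52 for Tfrc (below 0 without KO stressed B or WT stressed A). For stress in WT-labelled HSCs they ran from -0.17 to 0.0995 for Tfrc (above 0 without WT stressed A or WT normal A) and from -0.29 to 0.0342 for Epor (above 0 without WT stressed B). For stress in KO-labelled HSCs they ran from -0.0779 to 0.25 for Zfpm1 (below 0 without KO normal A). Hbb-bt was -0.0031 in normal HSCs with copies summed. Of all genes, 45 (no variance trend) to 275 were called for KO against WT in normal HSCs (236 in the report), 0 (only the groups compared) to 51 in stressed HSCs (22), 251 to 612 for stress with the WT label (500), 249 to 727 with the KO label (682) and 1 to 26 for the interaction (3). The globin results rest on 2 or 3 libraries per group and, for Hba-a1, on 20 to 155 reads per library.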

Other observations

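The carbonic anhydrase family was followed beside Car1 and Car2, with 10 of its genes tested. Under stress Car1 was the only one of the 10 that passed in either genotype label, beside 3.30% and 4.50% of all genes called with the WT and the KO label. Car13 stood at 2.28 to 2.47 log2 CPM in WT-labelled normal and at 2.02 to 2.76 in KO-labelled normal libraries, and at 2.52 to 3.75 in the 4 stressed ones. Its stress difference was 0.71 in WT-labelled HSCs and 1.30 in KO-labelled HSCs (adjusted p = 0.335 and 0.0647 in limma). Car3 differed by 0.68 and 1.23 (adjusted p = 0.357 and 0.0780 in limma), also above 0. Neither passed, and both were far below Car1 and Car2 in level.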
